A study of Mus musculus with 38 samples.

Results

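The genes described here are 40 genes of collagens and the extracellular matrix, listed by their known roles in collagen fibres, basement membranes, elastic fibres, crosslinking and matrix remodelling, at a time when earlier results of these data were known. By transcript accession, 38 of the 40 had a probe, among 20018 genes with a symbol on the array, and Col6a3 and Col12a1 had none. Male MutaMouse, a transgenic strain that carries a bacterial reporter gene for mutation assays, were about 10 weeks old and received dibenz(a,h)anthracene (DBahA), a polycyclic aromatic hydrocarbon, in olive oil by gavage each day for 28 days. The doses were 6.25 (D1), 12.5 (D2) and 25 (D3) mg/kg-bw/day, D0 mice received olive oil alone, and lung and forestomach were frozen 72 h later. From D0 to D3 there were lungs of 5, 5, 4 and 5 mice and forestomachs of 5, 5, 4 and 4 of the same mice, with RNA from random sections of each tissue. Each array set the Cy5 signal of 1 tissue against the Cy3 signal of a common reference RNA pooled from mouse cell lines, and every value below is the log2 of that ratio for 1 probe, so that values of a gene can be compared between mice but not between genes.

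The extracellular matrix is the network of secreted proteins that surrounds cells. Fibrillar collagens give tensile strength, collagen IV and laminins form the thin basement membranes beneath epithelium and around capillaries, and elastic fibres let the lung recoil after each breath. Lysyl oxidases crosslink these proteins, matrix metalloproteinases cut them, and tissue inhibitors of metalloproteinases (Timps) block the proteases.

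Some samples stood apart. Alveolar and airway epithelium markers had mean log2 ratios from 5.66 to 7.01 on lung arrays and from 0.644 to 1.66 on forestomach arrays, and squamous epithelium markers from 3.69 to 4.84 on forestomach arrays and from -0.374 to -0.0504 on lung arrays, so the tissue labels held. Markers of glandular stomach, the neighbouring part of the organ, were between 0.370 and 0.938 on 6 forestomach arrays and between 4.83 and 6.90 on the other 13. Heart muscle markers ranged from -0.153 to 3.35 across lung arrays. At D3, 2 forestomach arrays carried the number of mouse 18. They were compared over 55 probes chosen because lung and forestomach moved together in the D0, D1 and D2 mice. The first correlated with the lung of mouse 18 (r = 0.879) and the second with the lung of mouse 19 (r = 0.813, against 0.0601 for the lung of mouse 18). Mouse 20 had a lung array and no forestomach array under its number, and r of the second array with its lung was 0.325. The array labelled mouse 19 also correlated with the lung of mouse 19 (r = 0.832). The labels do not settle this. The 2 arrays were averaged to 1 replicate, which may mix 2 animals, with the other ways of using them given as alternatives. Of the 38 members, 32 were well above background in Cy5 on every lung array and 27 on every forestomach array.

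Col4a1 with Col4a2, and Col4a3 with Col4a4, are collagen IV genes that lie head to head. The stretches at their starts are shown because the values of these pairs across the lungs are compared further on. RefSeq promoter windows (GRCm38.p6, from 250 bases before to 50 after the start) were found for 25 of the 38 members. The annotated starts of Col4a1 (chr8:11312826, minus strand) and Col4a2 (chr8:11312805, plus strand) were 21 bases apart. The stretch at chr8:11312773-11312800 on the plus strand lay from 32 to 5 bases before the Col4a2 start and downstream of the Col4a1 start. Its capitals mark the CCAAT box and, further on, the motif CCCCTCCCC. The Col4a4 start used in that table (chr1:82586849, minus strand) lay 72 bases from the start of Col4a3 (chr1:82586921, plus strand). The 71 bases between them, chr1:82586850-82586920, are given on the minus strand and held, on either strand, no CCAAT box, no CCCCTCCCC, no match to GGGCGG and no GCGTG core.
Col4a2: CCAATttgttggcgctgcCCCCTCCCCt
Col4a4: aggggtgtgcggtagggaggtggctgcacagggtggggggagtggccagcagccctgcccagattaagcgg

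To determine whether DBahA altered matrix genes in the lung, each dose was compared with D0. The call asked for a limma adjusted p no higher than 0.05 together with a change of 1.5-fold or more either way. At D3, 0 of 38 members were called, beside 0.639% of all 55681 probes tested. Without the minimum fold 1 of 38 passed, Fn1, beside 1.33% of probes. An unadjusted p under 0.05 was found for 10 of 38 members, beside 11.3% of probes. The difference was above 0 for 26 of 38 members, beside 49.9% of probes, and the median over members was 0.09 on the log2 scale, or 0.45 with median centring in place of loess. At D1 and D2, 0 of 38 members were called, beside 0.14% and 0.264% of probes, and 8 members at each dose had an unadjusted p under 0.05, beside 6.53% and 8.06% of probes. The differences were above 0 for 22 members at D1 (beside 50.9% of probes) and 28 at D2 (beside 50.6%). With any fold, 0 members passed at either dose, beside 0.192% and 0.357%. These contrasts share the D0 mice. In bulk tissue, fewer cells of a type and less RNA per cell cannot be told apart.

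The member closest to a call was Fn1, which encodes fibronectin, an adhesive glycoprotein of provisional matrix. Its log2 ratios were -1.78, -1.68, -1.499, -2.02 and -1.56 in the D0 mice and -0.89, -1.35, -1.39, -0.82 and -1.20 in the D3 mice. All D3 values lay above all D0 values. The difference was 0.58 ± 0.13 (SE, n = 5 and 5), a 1.49-fold higher level, with a limma adjusted p of 0.0269, so it missed the call by its fold alone. At D2, where all 4 mice also lay above the D0 mice, the difference was 0.55 (adjusted p = 0.117), and at D1 it was 0.30 (adjusted p = 0.726). Leaving out 1 mouse at a time gave a call of Fn1 in 6 of 10 cases (without D0 mouse 2, 3 or 5 or D3 mouse 17, 18 or 20), with differences between 0.50 and 0.64. In the other 4 cases the adjusted p was above the threshold, at up to 0.0983. So it was when only D0 and D3 were fitted (0.0555), with the scanner software's ratio (0.0643) and with median centring (0.732). Of 12 alternatives 2 called Fn1, the log2 ratios that the authors deposited and the heart muscle marker mean as a covariate.

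**Figure D1:**
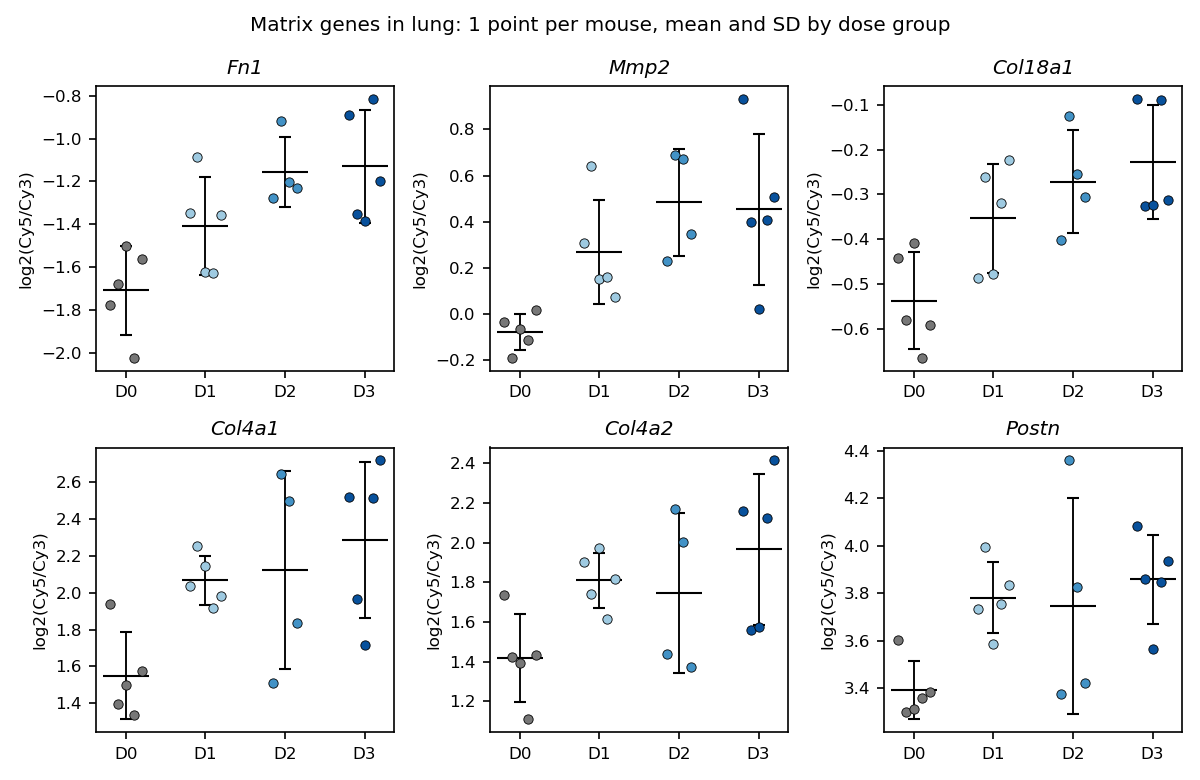
Log2(Cy5/Cy3) of 6 matrix genes in lung, with 1 point per mouse, the mean (wide line) and SD (bars) for each dose group on the x axis. At D3 the points of Fn1, Mmp2 and Col18a1 all lie above the D0 points, while those of Col4a1, Col4a2 and Postn overlap them.

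Among basement membrane collagens the D3 differences ranged from -0.10 to 0.74. Col4a1 and Col4a2 encode the chains of the collagen IV found in nearly all basement membranes. Col4a1 was at 1.94, 1.39, 1.4995, 1.34 and 1.57 at D0 and at 2.52, 1.97, 1.72, 2.51 and 2.72 at D3. Mouse 18, at 1.72, lay below the highest D0 mouse, and the other 4 lay above all D0 mice. The difference was 0.74 ± 0.20 (SE), 1.67-fold, with an adjusted p of 0.0778. Col4a2 differed by 0.55 ± 0.17 (adjusted p = 0.147) and was above the D0 mean in 5 of 5 D3 mice. At D1 and D2 the differences were 0.52 and 0.57 for Col4a1 and 0.39 and 0.33 for Col4a2, and the lowest of the 4 adjusted p-values was 0.43.

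With slide or scan date as a block, or with only bright probes tested, Col4a1 passed, at differences of 0.82, 0.79 and 0.74 and adjusted p-values of 0.028, 0.0327 and 0.049. These fits called 505, 462 and 390 probes, against 356 in the main fit. The last of them tested only probes well above background on every D0 or every D3 array. That is fewer than the 55681 of the main fit, so its 390 cannot be set against 356 as a share. Without D3 mouse 18, Col4a1 (0.88), Fn1 (0.64) and Mmp2 (0.64) were all called, beside 386 probes. Mice 17 and 18 had heart muscle scores of 2.56 and 3.09 and mouse 19 one of 2.14, while mice 16 and 20 were at -0.153 and -0.0977. The D0 lungs ranged from 0.0151 to 1.63, so 3 D3 arrays and 0 D0 arrays were at 2 or above. So were D1 mouse 9 (2.22) and D2 mouse 11 (3.35). The members' mean log2 ratio had a median of 0.161 on these 5 arrays and 0.336 on the other 14. With the heart muscle score as a covariate 4 members were called, Col4a1 (0.87), Col4a2 (0.65), Fn1 (0.62) and Mmp2 (0.61), beside 440 of all probes. Endothelium markers, all 6 well above background on every lung array, ranged in mean log2 ratio from 3.44 to 4.18 at D0 and from 3.77 to 4.37 at D3, and their part in the collagen IV values was not tested.

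Col18a1, the collagen that releases endostatin, was picked out after its values were seen. It was at -0.44, -0.58, -0.41, -0.67 and -0.59 at D0 and at -0.09, -0.33, -0.32, -0.09 and -0.31 at D3, without overlap. The difference was 0.31 ± 0.08 (SE), with an adjusted p of 0.069. Its second probe differed by 0.55 (adjusted p = 0.00991), again under the fold of 1.5. Col4a3 and Col4a4, chains of the collagen IV of alveolar and kidney basement membranes, differed by 0.08 and -0.10 (adjusted p = 0.967 and 0.905), and Col15a1, well above background on 1 of 5 arrays in each group, by 0.05.

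The fibrillar collagens, which form the main fibres of connective tissue, lay near the D0 values. Their D3 differences were 0.12 for Col1a1, -0.10 for Col1a2, -0.15 for Col3a1, -0.05 for Col5a1 and 0.02 for Col5a2, and the lowest adjusted p was 0.854. In Col3a1 the 5 D3 mice ranged from -1.19 to 0.08 and the D0 mice from -0.62 to 0.14, so the spread within groups was wider than the difference between them. The 3 collagens of beaded filaments and fibril surfaces lay above 0, at 0.41 for Col6a2, 0.31 for Col14a1 and 0.09 for Col6a1, none with an adjusted p under 0.23.

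All 5 elastic fibre members lay above 0 at D3, none with an adjusted p under 0.37. Fbln1 and Fbln5 encode fibulins, which bind elastin, and differed by 0.42 and 0.34. Eln, elastin itself, differed by 0.18 ± 0.29 (SE), since its values ranged from 1.12 to 2.37 among D0 mice and from 1.32 to 2.83 among D3 mice. The crosslinking enzymes Lox, Loxl1 and Loxl2 had differences between -0.06 and 0.09.

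Among glycoproteins and proteoglycans, Postn, which encodes the matricellular protein periostin, was at 3.60, 3.30, 3.31, 3.36 and 3.39 at D0 and at 4.08, 3.86, 3.57, 3.85 and 3.94 at D3. Only D3 mouse 18 lay below the highest D0 mouse. The difference was 0.47 ± 0.14 (SE, adjusted p = 0.139). The lowest differences of all members were those of Dcn, at -0.31 ± 0.31 (adjusted p = 0.785), and of Tnc, at -0.27 ± 0.21 (adjusted p = 0.7). Dcn encodes decorin, a proteoglycan of collagen fibrils, and its D0 mice ranged from -0.77 to 1.03, around all 5 D3 mice. Tnc encodes tenascin C, a glycoprotein of remodelling tissue, and Lum, which encodes the fibril proteoglycan lumican, differed by -0.12.

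Of the proteases, Mmp2, a gelatinase that cleaves denatured collagen and collagen IV, was at -0.03, -0.19, -0.07, -0.11 and 0.02 at D0. At D3 it was at 0.93, 0.40, 0.02, 0.41 and 0.51. All D3 mice lay above all D0 mice, mouse 18 at 0.021 by a narrow margin over the highest D0 mouse at 0.017. The difference was 0.53 ± 0.14 (SE), 1.45-fold, with an adjusted p of 0.0591. At D1 all 5 mice and at D2 all 4 mice also lay above the D0 mice, with differences of 0.35 and 0.56 (adjusted p = 0.676 and 0.134).

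In all, 1 member at D1 (Mmp2), 3 at D2 and 3 at D3 (Fn1, Mmp2 and Col18a1 at both) did not overlap with D0 and were higher, beside 0.912%, 1.58% and 2.05% of probes. Mmp3, Mmp9, Mmp12, Mmp14 and Adamts1, further proteases, differed by -0.07 to 0.21 at D3. Mmp9 was well above background on 1 of 5 D0 and 1 of 5 D3 lung arrays. Mmp12 was so on 0 of 5 and 2 of 5, so the differences of both rest mostly on dim spots. Timp3, an inhibitor bound to the matrix, differed by 0.43 (adjusted p = 0.28), and Timp1 and Timp2 by 0.04 and -0.06.

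**Figure D2:**
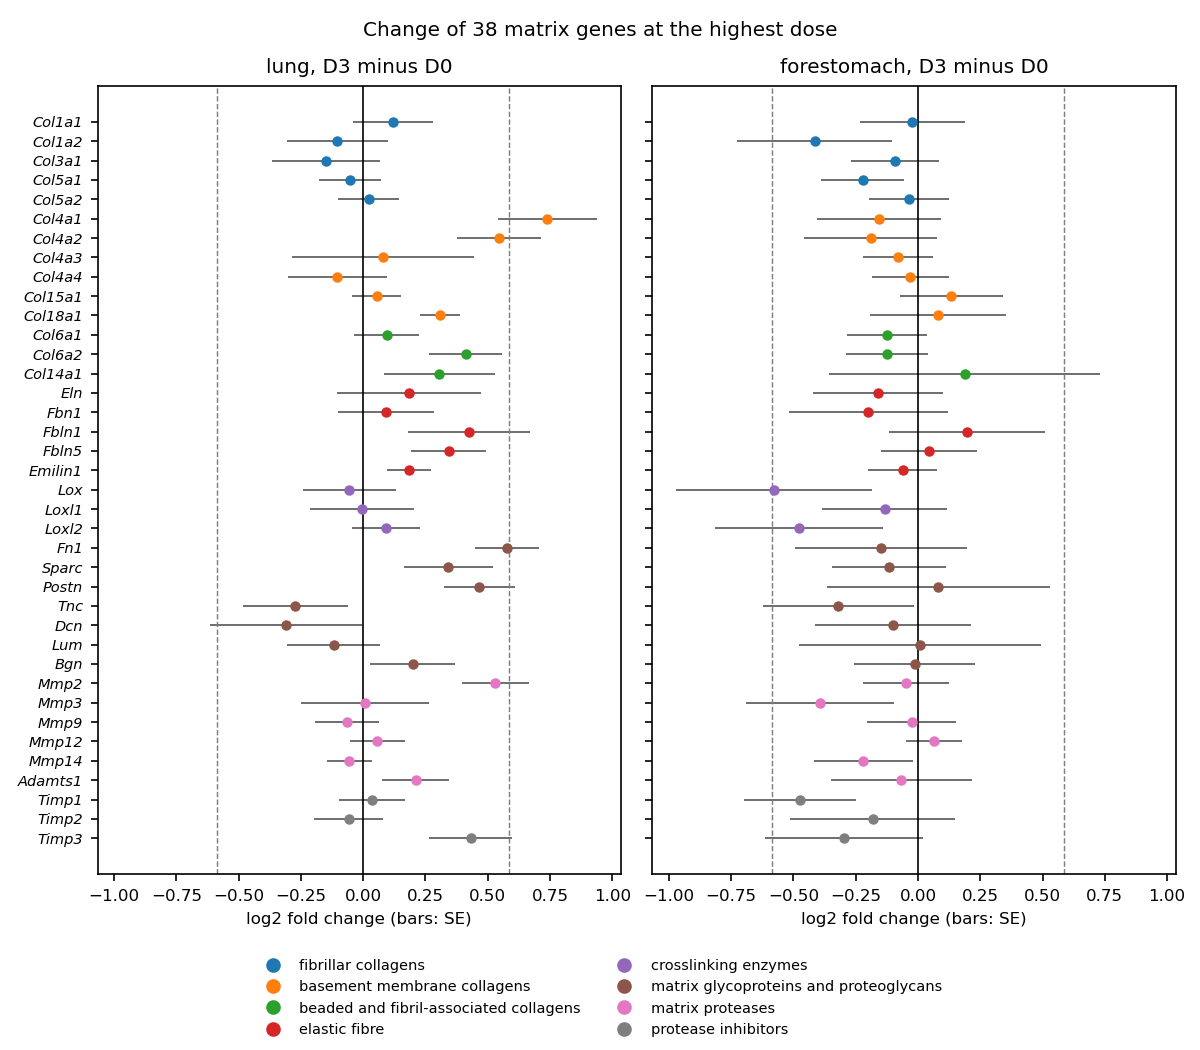
Log2 fold change of D3 against D0 (x axis, points with SE bars) for 38 matrix genes (y axis, coloured by role) in lung and forestomach, with dashed lines at a fold of 1.5. In lung the highest values are those of Col4a1 (0.74), Fn1 (0.58) and Col4a2 (0.55), and in forestomach the lowest are those of Lox (-0.58), Loxl2 (-0.48) and Timp1 (-0.47).

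The members did not differ evenly across the D3 lungs. In mice 16, 19 and 20, 33, 31 and 30 of 38 members lay above the D0 mean, and in mice 17 and 18 it was 17 and 16. Over all probes the share above the D0 mean was 51.8%, 49.4% and 50.5% in the first 3 and 52.2% and 48.8% in the other 2. Within D0 the count ran from 9 to 26 members. Mouse 19 shared the raised heart muscle score of mice 17 and 18.

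Genes that act on or beside the matrix were followed in further lists, written with earlier results of these data known. Ltbp2, which encodes a latent TGF-beta binding protein found on elastic fibres, rose 1.67-fold in lung at D3, by 0.74 ± 0.17 (adjusted p = 0.0296), and was the only gene called of 7 TGF-beta ligands and latent binding proteins. Its values were -0.64, -0.72, -0.74, -1.19 and -0.50 at D0 and 0.19, -0.25, -0.46, 0.21 and 0.25 at D3. The D3 mice all lay above the D0 mice, but the call was lost in 6 of 10 cases when 1 mouse was left out (D0 mouse 2, 3 or 4 or D3 mouse 16, 19 or 20), with adjusted p-values up to 0.0983. It was also lost with median centring in place of loess, though the difference was larger there (1.17).

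No gene was called at D3 among 9 TGF-beta receptors and SMADs, 10 collagen processing genes, 18 other basement membrane genes, 8 other microfibril genes, 13 other proteases and inhibitors and 12 matrix receptors. By adjusted p alone 3 genes of these lists passed at D3, named here after their values were seen. They were Nid1, which links laminin to collagen IV, at 0.52 (adjusted p = 0.0189), and the integrin genes Itgb1 at 0.42 (adjusted p = 0.0469) and Itgb3 at -0.46 (adjusted p = 0.00512).

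In forestomach, 0 of 38 members were called at D1, D2 or D3, and 0% of all probes at each dose. At an unadjusted p under 0.05 there were 2 members at D1 (Fn1 and Sparc, beside 4.31% of probes), 0 at D2 (beside 3.12%) and 0 at D3 (beside 3.57%). No mouse group lay wholly above D0 in any member, beside 0.264%, 0.471% and 0.498% of probes. The difference was above 0 for 12 of 38 members at D1 (beside 49.2%), 16 at D2 (beside 50.6%) and 8 at D3 (beside 50.2%), with a median of -0.11 at D3. This direction was that of the loess values, and with median centring the members' median was 0.57, while the median shift over all probes was 0.0055.

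**Figure D3:**
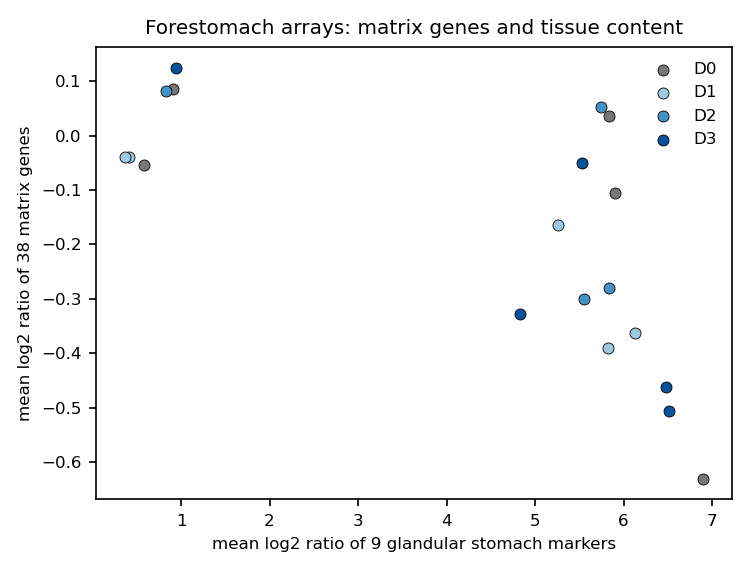
Mean log2 ratio of 38 matrix genes (y axis) against the mean log2 ratio of 9 glandular stomach markers (x axis), with 1 point per forestomach array coloured by dose group. The 6 arrays with marker means of 0.370 to 0.938 lie between -0.0546 and 0.125 on the y axis, and the other 13 between -0.63 and 0.0521.

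The 5 members with the lowest differences at D3 in forestomach included the lysyl oxidases Lox, at -0.58 ± 0.39 (SE), and Loxl2, at -0.48 ± 0.34. The others were Timp1 at -0.47, Col1a2 at -0.42 and Mmp3, a stromelysin, at -0.40, and every adjusted p was 1. Lox was at -3.07, -2.98, -2.01, -1.45 and -2.64 in D0 mice and at -3.15, -3.55, -2.80 and -2.53 in D3 mice, and the groups overlapped. Its signal was well above background on 1 of 5 D0 and 3 of 5 D3 arrays, and that of Mmp3 on 1 of 5 arrays in each group, so that these differences rest mostly on dim spots. The highest differences were 0.20 for Fbln1, 0.19 for Col14a1, 0.13 for Col15a1, 0.08 for Postn and 0.08 for Col18a1, with Col15a1 well above background on 1 of 5 D0 arrays. Col14a1, which encodes a collagen of fibril surfaces, ranged from 1.54 to 4.06 within D0 and from 1.84 to 3.33 within D3. The D0 and D3 groups both held arrays on either side of the gap in glandular stomach markers that the plot of tissue content shows. On its low side were D0 mice 2 and 5 (0.587 and 0.915). At D3 it was only the first array of mouse 18 (0.938), which was averaged with the second, at 6.51. All 9 markers lay above 0 at D3 against D0, with a median of 1.17. The members' mean log2 ratio had a median of 0.0219 on the 6 low arrays and -0.301 on the other 13. The part of this content in the direction of the D3 differences was not tested. With the glandular marker mean as a covariate, 0 members were called at any dose.

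The SD of a member within a dose group was also wider in forestomach, with a median of 0.402 over members and a range of 0.165 to 0.884, than in lung, with a median of 0.288 and a range of 0.119 to 0.666. At D3 the Fn1 values in forestomach were -1.36, -2.08, -2.28 and -2.63, within the D0 range of -2.83 to -1.36. The Col4a1 values were 1.01, 0.43, 0.28 and -0.02, against -0.04 to 1.05 at D0.

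Whether the D3 response differed between the tissues was tested in 1 fit of all arrays. Here 0 of 38 members were called, beside 0.172% of probes, and 4 members had an unadjusted p under 0.05 (Col4a1, Col4a2, Col6a2 and Mmp2), beside 4.99% of probes. The response was higher in lung for 31 of 38 members, beside 50.2% of probes, with a median of 0.23 that became -0.02 with median centring. The largest differences of the responses, lung minus forestomach, were 0.90 ± 0.33 for Col4a1 (adjusted p = 0.677), 0.74 ± 0.32 for Col4a2, 0.73 ± 0.36 for Timp3, 0.73 ± 0.37 for Fn1 and 0.58 ± 0.23 for Mmp2 (adjusted p = 0.749). With the mouse as a fixed or random block the count was also 0. Of the further lists, Ltbp2 was called, with a response 1.12 ± 0.23 higher in lung (adjusted p = 0.0228). With the mouse as a fixed block its difference was 1.06 and its adjusted p 0.113.

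To see where the members are expressed without DBahA, D0 lung was compared with D0 forestomach, probe by probe. Of 38 members 15 were called, beside 16.2% of probes. Of these, 11 were higher in lung, beside 8.62% of probes, and 4 were higher in forestomach, beside 7.6%. With median centring the count was 10, with 9 higher in lung and 1 in forestomach. That setting shifted the members' differences by a median of 0.47, beside -0.0036 over all probes. The share of all probes called under it is not given here, so this split has no background to be read against.

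**Figure D4:**
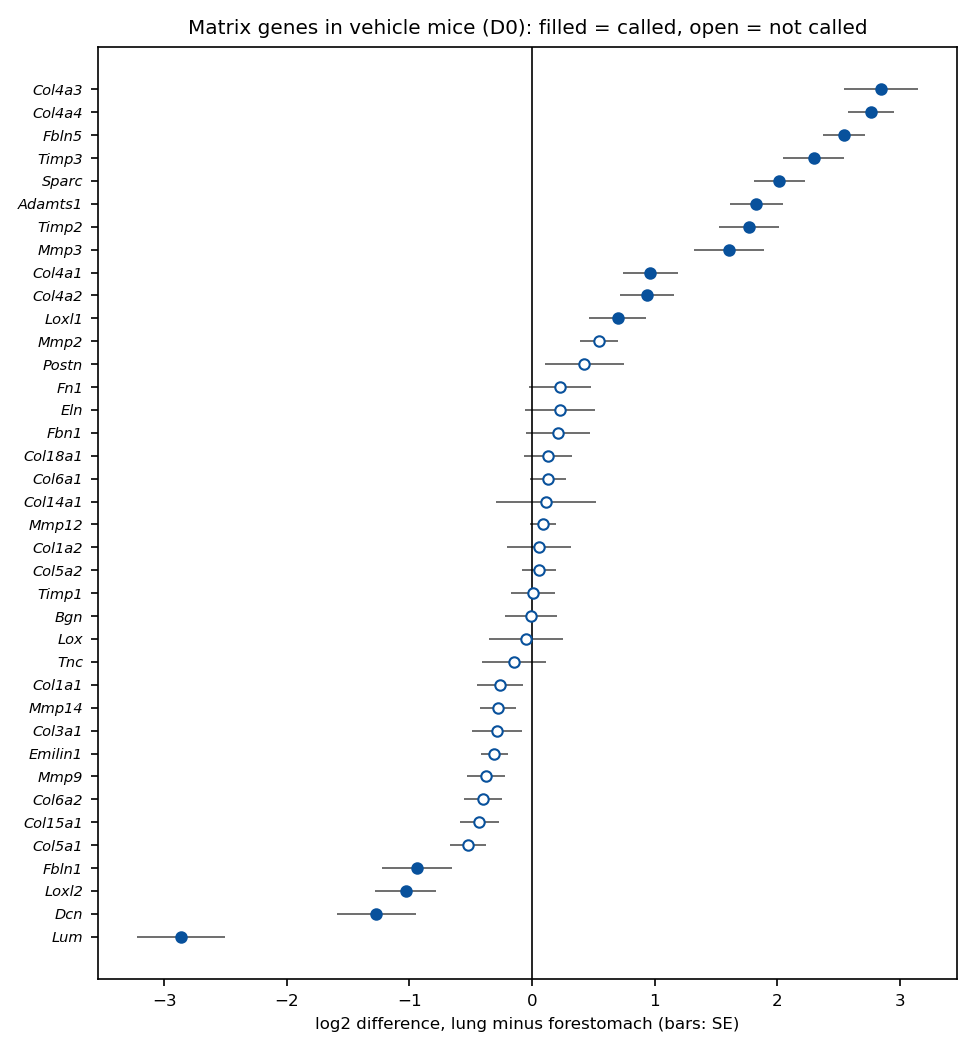
Log2 difference of lung minus forestomach in D0 mice (x axis, points with SE bars, n = 5 and 5) for 38 matrix genes ordered by size (y axis). Filled points passed the call and open points did not, and Lum (-2.87) lies at the lower end. Col4a3 is drawn at its measured ratio, although none of its 5 forestomach arrays was well above background.

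Among basement membrane collagens, 4 of 6 were called, all higher in lung. Col4a3 was at 4.11, 3.03, 2.06, 2.38 and 3.67 in lung and at 0.44, 0.21, -0.03, 0.13 and 0.27 in forestomach, where none of the D0 arrays measured it well above background. Set against the lowest signal of any probe well above background there, Col4a3 was 6.23-fold higher in lung. That signal is not a detection limit for this probe, so 6.23 is not a strict lower bound, and it was not itself tested. The limma adjusted p of 2.57e-09 is that of the measured ratio (a difference of 2.85), which uses these dim forestomach values. Col4a4 was at 3.56, 2.93, 2.67, 2.495 and 3.40 in lung and between 0.03 and 0.62 in forestomach, with 3 of 5 arrays well above background, a difference of 2.77 ± 0.18 (SE) or 6.80-fold (adjusted p = 4e-14). Col4a1 and Col4a2 were higher in lung by 0.97 and 0.94. Endothelium markers, beside these, ranged from 3.44 to 4.18 on D0 lung and from 0.6245 to 1.33 on D0 forestomach arrays, and their part was not tested.

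The elastic fibre gene Fbln5, required for elastic fibre assembly, was at 1.91, 1.66, 1.63, 1.05 and 1.73 in lung and at -1.30, -1.07, -0.95, -1.04 and -0.40 in forestomach. The groups were far apart, by 2.55 ± 0.17 or 5.84-fold (adjusted p = 5.76e-14), but its second probe differed by 0.11 (adjusted p = 0.479). Timp3 was higher in lung by 2.30 ± 0.25 (4.92-fold), Sparc, a collagen-binding glycoprotein, by 2.02 ± 0.21 (4.04-fold), the protease Adamts1 by 1.83 ± 0.22 (3.55-fold), and Timp2 by 1.77, or 0.72 on its second probe. Mmp3 was higher in lung by 1.61, with 1 of 5 forestomach arrays well above background. Loxl1 was higher by 0.70 on the probe used and by 0.13, without a call, on its second probe.

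The last 100 bases before the annotated starts of Fbln5 and Timp3, both called higher in lung, are shown with capitals for GGGCGG (GC box) and GCGTG (core of the aryl hydrocarbon receptor site) on either strand. The Fbln5 stretch is chr12:101819120-101819219 on the minus strand and the Timp3 stretch chr10:86300312-86300411 on the plus strand.
Fbln5: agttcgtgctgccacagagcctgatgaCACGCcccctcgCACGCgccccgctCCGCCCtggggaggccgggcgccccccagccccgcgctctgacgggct
Timp3: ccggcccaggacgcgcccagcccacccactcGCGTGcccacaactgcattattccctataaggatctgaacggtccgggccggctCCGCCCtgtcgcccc

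Of 25 members with a window, 16 had GGGCGG in at least 1 window, and it was in 18 of their 32 windows, beside 35.7% of all 32851 windows of that table. GCGTG was in 13 of 32 windows, beside 32.4%. CCAAT was in 10 (beside 37.4%), CCCCTCCCC in 5 (beside 6.37%), TATAAA in 7 (beside 13.6%) and TGANTCA in 3 (beside 7.81%), counting both strands. The windows of Col4a1 and Col4a2 overlap by 78 bases that hold the CCCCTCCCC printed for Col4a2, so this match was counted in both. Where motifs can share a letter, as GGGCGG with GCGTG, both were counted. A match is a description of these letters only.

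In the other direction, Lum was at 1.42, 2.00, 1.07, 1.62 and 1.42 in lung and at 3.00, 5.56, 4.14, 4.18 and 4.98 in forestomach. It was 7.29-fold higher in forestomach, a difference of -2.87 ± 0.36 (adjusted p = 7.67e-08). Of these forestomach values, 5.56 and 4.98 came from mice 2 and 5, whose glandular stomach scores were 0.587 and 0.915, beside 5.84 to 6.90 in the other 3. Dcn was higher in forestomach by 2.41-fold (adjusted p = 0.00231), the crosslinking enzyme Loxl2 by 2.04-fold (adjusted p = 0.00161), with differences of -0.57, not called, and -0.81 on its other probes, and Fbln1 by 1.92-fold (adjusted p = 0.0118). Each of these 3 calls was lost with median centring. Smooth muscle markers were from 4.14 to 5.21 on D0 forestomach and from 0.145 to 1.57 on D0 lung arrays. Fibroblast and pericyte markers ran the other way, from -0.125 to 0.683 on D0 forestomach and from 0.990 to 1.38 on D0 lung arrays. Of these 6 markers, 3 were called higher in lung and 1 higher in forestomach. The part of either list was not tested.

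None of the 5 fibrillar collagens was called between the tissues, with differences from -0.52 (Col5a1) to 0.06. Mmp2 (0.55), Col5a1 (-0.52), Col15a1 (-0.43) and Emilin1 (-0.31) passed the adjusted p but not the fold of 1.5. Col15a1 was well above background on 1 of 5 arrays in either tissue and Emilin1 on 3 of 5. Mmp12, a macrophage elastase, reached no signal well above background in D0 mice of either tissue, and Mmp9 did so on 1 D0 lung array and on none of D0 forestomach, so no fold is given for them.

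How the paired chains of one collagen molecule varied among mice was examined in the 19 lungs after the mean of each dose group was removed. Col4a1 and Col4a2 had r = 0.919 and rho = 0.926, each with a permutation p of 1e-05, the smallest the permutations can give, and r was 0.916 without the 2 mice farthest out. Col4a3 and Col4a4 had r = 0.818 and rho = 0.816 (permutation p = 4e-05 for each), and 0.728 without 2 mice. With slide means removed as well, the first r was 0.943 and the second 0.182 (adjusted p = 0.459), so the relation of Col4a3 with Col4a4 did not hold within slides.

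**Figure D5:**
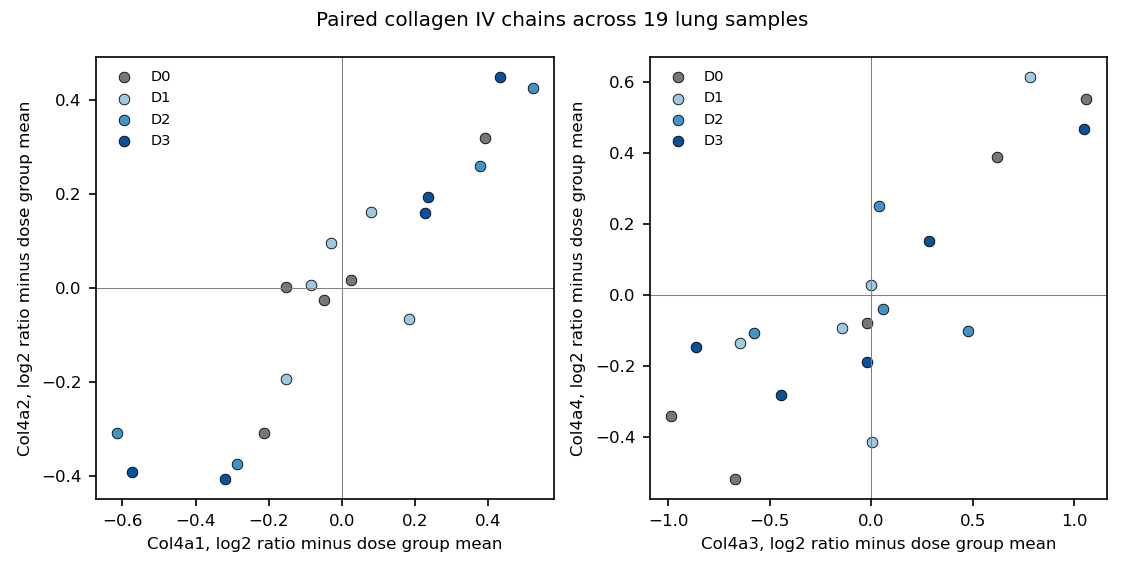
Deviation of the log2 ratio from the dose group mean in 19 lungs, Col4a2 against Col4a1 (left) and Col4a4 against Col4a3 (right), with 1 point per mouse coloured by dose group. The points follow a rising line in both panels (r = 0.919 and 0.818).

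Col1a1 and Col1a2, the chains of collagen I, had r = 0.656 and rho = 0.646 (permutation p = 0.00266 and 0.00323), and Col6a1 and Col6a2 r = 0.53 and rho = 0.553 (permutation p = 0.0212 and 0.0154). Without the 2 farthest mice r was 0.768 and 0.601, and with slide means removed 0.883 and 0.85. Col5a1 and Col5a2 had r = 0.433 and rho = 0.254 (permutation p = 0.0636 and 0.29), 0.211 without 2 mice and 0.597 with slide means removed. After adjustment over the 5 pairs, p for r was 5e-05 for Col4a1 with Col4a2, 1e-04 for Col4a3 with Col4a4, 0.00443, 0.0265 and 0.0636 for the pairs of collagens I, VI and V. Over all 703 pairs of members the median r in lung was 0.258, and 75.7% were above 0. These correlations share the arrays and their normalization. The permutations took the deviations as independent although group means had been removed from them, so these p-values may be too low.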

How the data were processed

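Total RNA of lung and forestomach was labelled with Cy5 and hybridised with Cy3-labelled universal mouse reference RNA to 38 Agilent mouse arrays, without dye swaps. The authors deposited the scanner output of Agilent Feature Extraction 10.7.3.1, which holds median spot intensities and local background without normalization, a log10 ratio of Cy5 over Cy3 after the software's own background subtraction and dye normalization, and 0 or 1 flags for each spot. Log2 ratios that the authors deposited in a single value table followed the values computed here with a correlation from 0.995 to 0.999 and column medians from -0.0415 to -0.0195.

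Here, log2(Cy5/Cy3) was computed from median intensities without background subtraction and normalized by loess within each array in limma 3.58.1 (R 4.3.3, data.table version 1.17.8). Control spots had weight 0 in the fit, spots marked as outliers were left out, and spots of 1 probe were averaged, which gave 55681 probes. Between 41.46% and 63.79% of spots on lung arrays and between 30.09% and 60.81% on forestomach arrays were well above background, and 0 spots were saturated. The number of arrays limits the precision. Symbols came from RefSeq accessions (GRCm38.p6) for 26413 probes, and each gene was represented by the probe with the highest mean Cy5 signal. The 4 dose groups of a tissue were fitted together with lmFit and eBayes, and contrasts of both tissues used a fit of all 8 group means. The study's own package was not used here and limma took its place. Adjusted p-values are Benjamini-Hochberg values over all probes of a contrast. Where mice share a group, the labels give separate animals. The fit was tested on simulated data with known changes.

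The members and lists were chosen with earlier results of these data known. The results of 1 further list are not reported here. Named are all called members, the 5 highest and 5 lowest differences at D3 in a tissue with few calls, and the 6 largest called differences in each direction between D0 tissues, besides genes said to be chosen after their values were seen. Lung and forestomach of a mouse pair by the animal number in the labels, and over 18 mice the deviations of both tissues from their group means correlated with r between 0.0751 and 0.249. The alternatives covered background correction, normalization, the source of the ratio, outlier spots, dim probes, the choice of probe, slide and scan date, the samples fitted, the arrays of mouse 18, tissue content, mouse as a block and leaving out each mouse.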

Additional observations from a re-analysis of the deposited data

Results flagged for a closer look

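In 5 of 95 sets of a member and a group, 1 mouse lay far from the others, and chance gives about 1 in 20. Periostin (Postn) in the lung of D0 mouse 1 was at 3.604, while the other D0 lungs lay between 3.299 and 3.386. Decorin (Dcn) in the lung of D3 mouse 17 was at -0.532, below the other D3 lungs at 0.0421 to 0.229. In forestomach, fibulin 1 (Fbln1) of D1 mouse 6 was at 3.64, above the others at 2.529 to 2.803. Col14a1 of D3 mouse 19 was at 1.841, below the others at 3.158 to 3.332, of which the highest is the mean of the 2 arrays of mouse 18 at 4.289 and 2.3745. Col15a1 of D0 mouse 4 was at 0.6318, above the others at 0.4426 to 0.4915.

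The D3 response of Ltbp2 was higher in lung than in forestomach by 1.123 on the log2 scale, a difference that was itself tested (limma adjusted p = 0.0228). It was not called with median centring (0.75, adjusted p = 1), with mouse as a fixed block (1.06, adjusted p = 0.113) or in 7 of 10 cases when 1 mouse was left out.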

How the results depend on the processing

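The count of 0 members called at D1 and D2 in lung, at all doses in forestomach and for the D3 response of lung minus forestomach was the same under all alternatives run. Between D0 tissues the count was 15 in the main analysis, 10 to 19 under the alternatives, and 13 to 17 when 1 mouse was left out. The shares of all probes called in these other fits are not given here. With mouse as a fixed or random block it was 15, and the paired fits changed no call of a member count. In lung at D3 the count of 0 became 1 with the authors' table, with only bright probes, with slide or scan date as a block and with no minimum fold, became 4 with the heart muscle score as a covariate, and ran from 0 to 3 when 1 mouse was left out. The threshold without a fold and the averaging of mouse 18's second array with mouse 19 were chosen after seeing the data.

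Median centring in place of loess shifted values by a median over all probes of 0.0214 in lung and 0.00547 in forestomach at D3, and over the members by a median of 0.39 and 0.73, and the cause was not tested. With it these D3 differences changed sign: in lung Dcn (0.216), Col3a1 (0.384), Lum (0.204) and Col4a4 (0.268), and in forestomach Lox (0.107), Loxl2 (0.297), Timp1 (0.326), Col1a2 (0.480) and Mmp3 (0.243). In forestomach, slide as a block turned Fbln1 (-0.0603), Col14a1 (-0.173), Col15a1 (-0.0126) and Postn (-0.249). Scan date as a block turned Col14a1 (-0.0631), Postn (-0.209) and, in lung, Col4a4 (0.0234). The software's ratio turned Col14a1 (-0.0206). The first array of mouse 18 alone turned Col18a1 (-0.0209), the second Col14a1 (-0.0513) and Postn (-0.113), its average with mouse 19 Col18a1 (-0.0210) and the glandular score as a covariate Col18a1 (-0.0114).

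When 1 mouse was left out, lung differences ran from -0.266 to 0.0497 for Col3a1, from -0.228 to 0.00495 for Lum and from -0.234 to 0.0329 for Col4a4. Forestomach differences ran from -0.0286 to 0.415 for Fbln1, from -0.108 to 0.545 for Col14a1, from -0.0107 to 0.230 for Col15a1, from -0.207 to 0.468 for Postn and from -0.0634 to 0.163 for Col18a1. None of these was called. With slide means removed, r of Col4a3 with Col4a4 no longer passed (0.182). That of Col5a1 with Col5a2 passed by its permutation p (0.597), as it did with median centring (0.947). The permutations took the deviations as independent although group and slide means had been removed from them. Their p-values may therefore be too low, most of all with slide means removed.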
